A study of Homo sapiens with 12 samples.

Results

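The mean response to 3 forms of the receptor tyrosine kinase TYRO3 was measured by pooling all TYRO3 libraries and setting them against the GFP libraries. A pooled value does not by itself show what the forms have in common. The pool was formed from the sample titles and holds 9 libraries, 3 each with wild-type (WT), ΔGS or ΔADAM TYRO3, and the comparison group holds 3 GFP libraries, so that all 12 of the 12 libraries of the series are used. The cells were WM-266-4, a human melanoma cell line, and every group, GFP included, carried a stable lentiviral knock-down of TYRO3 and was grown with puromycin. Plasmids of the pEZY-myc-his type coding for GFP, WT TYRO3, TYRO3 ΔGS (I449A) or TYRO3 ΔADAM (P408A, L409P and G419P) were transfected with jetPRIME, and serum was withdrawn overnight before RNA extraction. Each of experiments 1, 2 and 3 gave 1 library per group, and the labels do not say whether the 3 experiments started from separate cultures, so p-values measure the spread between these libraries. The study describes the control plasmid as empty, whereas the labels name GFP. A response to the receptor cannot be told apart here from a response to making any membrane receptor in place of GFP, nor from other differences between the plasmids.

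TYRO3 is one of the TAM receptors, with AXL and MERTK, which bind the ligands GAS6 and PROS1 and dampen inflammatory signaling in phagocytes, and it is made by many melanomas. Its ectodomain can be shed by ADAM proteases, after which gamma-secretase releases the intracellular domain. The ΔADAM substitutions were placed in predicted ADAM sites, and the ΔGS substitution was made against the second cleavage. Among the gene groups described here are the interferon response, inflammatory cytokines, the integrated stress response with its transcription factor ATF4, sterol synthesis under the SREBP factors, the melanocyte program under MITF and the invasive state of melanoma cells.

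The total of estimated counts ranged from 4008293 to 38184838 per library. The GFP library of experiment 1 had the lowest total, the next had 18365999, and it also had the largest mitochondrial share, 8.46% of counts against 4.38 to 7.25% in the TYRO3 libraries. The melanocyte lineage was present: 7 of its 8 markers reached 1 TPM in all libraries, with a summed level of 1643 to 1989 TPM in GFP and 1068 to 1987 TPM in TYRO3 libraries. The 6 leukocyte markers summed to 1.60 to 3.74 TPM in GFP and 1.67 to 3.30 TPM in TYRO3 libraries, and none reached 1 TPM in every library. The keratinocyte and endothelial markers above 1 TPM in all libraries were KRT10 and KDR alone, and 2 keratinocyte markers were at 0 in every library. The 6 fibroblast markers, of which LUM and COL1A1 were above 1 TPM in all libraries, summed to 73.1 to 95.3 TPM in GFP and 49.1 to 76.1 TPM in TYRO3 libraries.

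TYRO3 itself (ENSG00000092445, chr15:41557675-41583586 on the plus strand of GRCh38) was detected at 53.1, 47.3 and 56.6 CPM, counts scaled to the same library size, in the GFP libraries of experiments 1, 2 and 3. In the 9 TYRO3 libraries it ranged from 1181 to 3694 CPM with a median of 1648, a mean of 2076 ± 985 (SD, n = 9). No TYRO3 library overlapped with a GFP library, and the log2 fold change was 5.09 ± 0.25 (SE; edgeR quasi-likelihood test, Benjamini-Hochberg adjusted p = 6.64e-07). The libraries of experiment 1 held 3064 to 3694 CPM, those of experiment 2 1215 to 1791 and those of experiment 3 1181 to 1648, so the receptor was highest in experiment 1 with every construct. The 3 constructs did not differ detectably in TYRO3 level: WT minus ΔGS was -0.07 on the log2 scale (95% interval -0.56 to 0.42), WT minus ΔADAM 0.22 (-0.28 to 0.71) and ΔGS minus ΔADAM 0.29 (-0.20 to 0.78).

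Of 15098 genes tested, 607 were higher (4.02%) and 348 lower (2.3%) with TYRO3. A change of more than 1.5-fold whose adjusted p was 0.05 or less is the rule by which a gene is called here, and in all 955 genes were called in either direction (6.33%). The median fold of the called genes was 1.92 for those that rose and 1.73 for those that fell, and 272 rose and 94 fell by more than 2-fold. Of the 955, 914 were protein coding. The groups did not overlap, with all 9 TYRO3 libraries above all 3 GFP libraries, for 760 genes (5.03%), and in the other direction for 787 (5.21%). Without the term for experiment, that is without the replicate block, 263 genes were called higher and 125 lower. Without experiment 1, 212 were called higher (1.42%) and 88 lower (0.588%), and 206 of the 607 and 87 of the 348 kept their call. Without the GFP library of experiment 1 alone the counts were 350 and 147, with 339 and 140 kept. Each experiment has 1 GFP library, and the fit has a term for experiment. Leaving out a GFP library therefore removes the contrast of its whole experiment, and does not check that library alone.

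**Figure D1:**
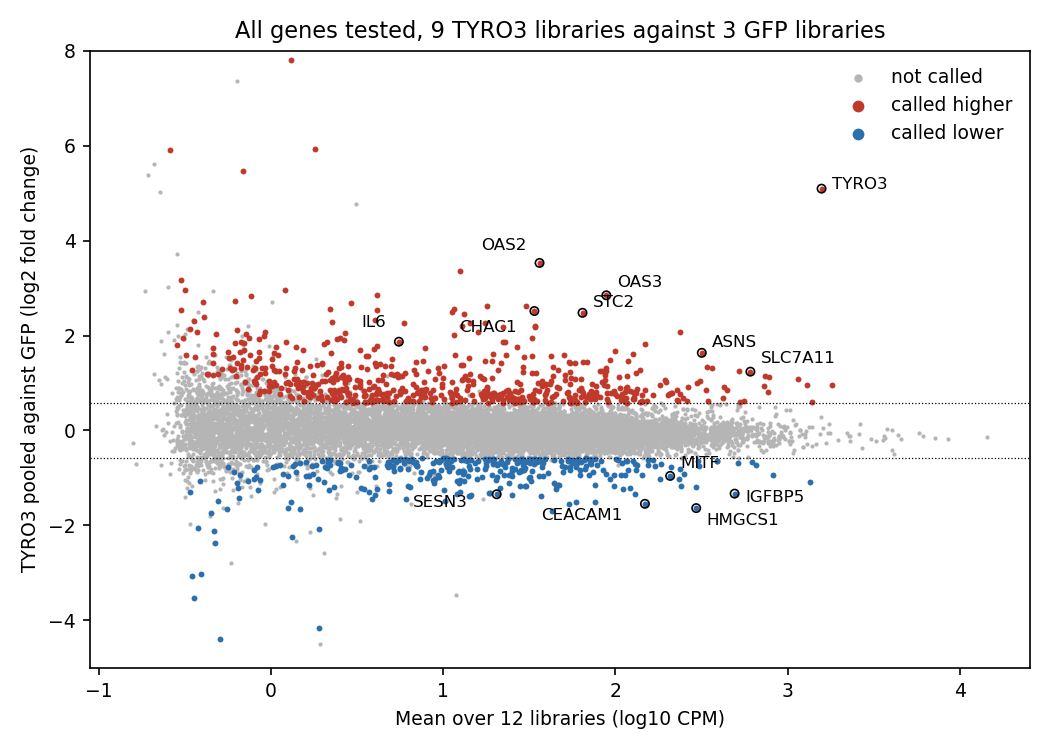
Log2 fold change of TYRO3 pooled against GFP (vertical axis) against the mean level over 12 libraries (horizontal axis, log10 CPM) for each gene tested. Red points were called higher and blue points lower, and the dotted lines mark a 1.5-fold change. TYRO3 at 5.09 stands far above the other genes of its level, OAS2 and OAS3 lead the rises of mid-level genes, and HMGCS1 at -1.64 and CEACAM1 at -1.54 are among the falls.

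Genes induced by interferon rose most widely. Of 42 tested genes of the interferon-stimulated list, 34 were called higher and 0 lower, all 42 had a positive log2 fold change, and the median was 1.37 against -0.00 over all genes tested. Of the 12 largest rises among called protein-coding genes with a mean of at least 5 CPM that moved alike in all 9 TYRO3 libraries, 8 were members: OAS2, OAS1 and OAS3, which sense double-stranded RNA and make 2',5'-oligoadenylates, XAF1, IFI44L, the antiviral enzyme RSAD2, the ISG15 protease USP18 and SAMD9L. The promoters of OAS3, IFIT5 and IFIT1 are shown because their last 250 bases before the RefSeq start (GRCh38.p14) hold the interferon-stimulated response element. IFIT5 and IFIT1 bind viral RNA. These 3 were chosen after their values and sequences were seen. Capitals mark this element, searched as GAAA and GAAA set apart by 2 bases of any kind, on either strand. The other strand then holds TTTC and TTTC.
OAS3 promoter, chr12:112938224-112938473, plus strand: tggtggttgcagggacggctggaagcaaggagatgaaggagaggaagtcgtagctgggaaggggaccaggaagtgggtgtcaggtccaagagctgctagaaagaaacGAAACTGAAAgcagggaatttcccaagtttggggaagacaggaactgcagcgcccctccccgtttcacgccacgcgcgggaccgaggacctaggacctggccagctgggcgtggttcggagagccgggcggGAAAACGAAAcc
IFIT5 promoter, chr10:89414318-89414567, plus strand: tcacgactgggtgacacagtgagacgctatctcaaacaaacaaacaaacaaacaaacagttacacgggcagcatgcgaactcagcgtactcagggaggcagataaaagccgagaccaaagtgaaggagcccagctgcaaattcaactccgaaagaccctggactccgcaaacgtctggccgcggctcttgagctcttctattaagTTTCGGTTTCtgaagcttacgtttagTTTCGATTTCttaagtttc
IFIT1 promoter, chr10:89392373-89392622, plus strand: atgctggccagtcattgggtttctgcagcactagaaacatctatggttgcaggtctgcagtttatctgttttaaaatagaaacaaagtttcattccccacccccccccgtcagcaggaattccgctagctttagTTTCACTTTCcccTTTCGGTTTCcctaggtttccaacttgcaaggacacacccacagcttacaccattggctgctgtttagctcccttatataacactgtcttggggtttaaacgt
The motif was in 23 of 35 promoters of the list (65.7%), in 40 of the 446 promoters of genes called higher (8.97%), in 8 of 254 of genes called lower (3.15%) and in 273 of all 11264 promoters tested (2.42%). These are matches of letters, and binding was not measured.

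OAS2 was listed at 0.526, 7.69 and 1.87 CPM in the GFP libraries of experiments 1, 2 and 3. With TYRO3 it ranged from 11.97 to 110 CPM with a median of 36.8, and the log2 fold change was 3.53 ± 0.23 (edgeR adjusted p = 5.00e-06). Every TYRO3 library was above every GFP library, but the level followed the experiment: the 3 TYRO3 libraries of experiment 2 held 83.2 to 110 CPM and those of experiment 3 held 11.97 to 13.2 CPM. In OAS3 the GFP libraries held 3.68, 28.6 and 6.67 CPM and the TYRO3 libraries 29.4 to 212 CPM (median 122; log2 fold change 2.85 ± 0.26, edgeR adjusted p = 7.80e-05). IFIT5 stood at 12.9, 35.2 and 20.7 CPM in GFP and at 41.1 to 112 CPM with TYRO3 (median 50.7; 1.43 ± 0.12). OAS1 had 0 counts in the GFP library of experiment 1, 2.94 and 0.859 CPM in the other GFP libraries, and 4.71 to 37.8 CPM with TYRO3. In all 4 genes experiment 2 was the highest, among the GFP libraries as among the TYRO3 libraries. Without experiment 1, 30 of the 42 were called, and without the replicate block 11 were. With at least 10 counts required in every library, members low in GFP such as OAS1 are not tested, and 23 were called.

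The factors that carry the interferon signal rose less widely, 5 of 17 tested with a median of 0.11. Among them were IRF1 (1.59 ± 0.14), STAT2 (0.67 ± 0.10), IRF9 (0.76 ± 0.13) and the feedback inhibitor SOCS1 (1.77 ± 0.32). IRF1 held 8.15, 10.8 and 7.08 CPM in GFP and 15.9 to 37.1 CPM with TYRO3 (median 29.8), with no overlap. STAT2 was at 0.67 with all libraries and was not called without the GFP library of experiment 2, at a log2 fold change of 0.53. The receptors and kinases IFNAR1, IFNAR2, JAK1 and TYK2 lay between -0.07 and 0.05 and were named after their values were seen. The transcript of interferon beta itself, IFNB1, stayed at or below 0.884 CPM in every library and was not called (1.45 ± 0.59, edgeR adjusted p = 0.103), nor was IRF7 (1.503 ± 0.69, edgeR adjusted p = 0.146). IFNB1 was called without the ΔADAM library of experiment 3 (1.60, edgeR adjusted p = 0.0444). IRF7 was called without the ΔGS library of experiment 3 (1.01, edgeR adjusted p = 0.00841) and in limma with a pseudocount of 0.1 or 1 TPM (1.25 and 0.90). These 2 genes too were chosen after their values were seen.

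Inflammatory cytokines and chemokines formed the list with the highest median, 1.43, and 12 of 15 tested members were called higher and 0 lower. CXCL10 and CXCL11, chemokines that draw T cells, had log2 fold changes of 2.49 ± 0.36 and 2.20 ± 0.23. The GFP libraries held 1.05, 1.48 and 1.47 CPM of IL6, and the TYRO3 libraries 3.60 to 13.1 CPM (median 5.33; log2 fold change 1.87 ± 0.24, edgeR adjusted p = 5.12e-04). The neutrophil chemokine CXCL8 stood at 14.99, 13.4 and 12.3 CPM in GFP and at 19.1 to 101.4 CPM with TYRO3 (1.56 ± 0.21), and IL1B had 1.54 ± 0.19. For IL6, CXCL8 and CXCL11 the groups did not overlap, and the TYRO3 libraries of experiment 1 were the highest for IL6 and CXCL8. Without experiment 1, 7 of the 15 were called, and without the replicate block 5. With at least 10 counts required in every library, which takes members low in GFP out of the test, 7 were called. Among NF-kB subunits and feedback genes, 6 of 17 were called higher, with BIRC3 at 1.22 ± 0.15, TNFAIP2 at 0.66 ± 0.09, RELB at 0.69 ± 0.12 and NFKB2 at 0.61 ± 0.09. NFKB2 was no longer called without the GFP library of experiment 1 (0.52) or without the ΔGS library of experiment 3 (0.56), and 3 of the 17 were called when either of these libraries was left out. The NF-kB site, searched on both strands as GGGA and TTTCC set apart by 1 base of any kind, was in 4 of 12 promoters of the cytokine list (33.3%), 10 of 446 of the genes called higher (2.24%), 0 of 254 of those called lower and 63 of all 11264 (0.559%).

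Antigen presentation by MHC class I rose with them in part, 7 of 16 called higher and 0 lower with a median of 0.76. TAP2, a subunit of the peptide transporter of the endoplasmic reticulum, held 50.2, 46.8 and 42.0 CPM in GFP and 71.5 to 111 CPM with TYRO3 (median 96.8). Its log2 fold change of 1.03 ± 0.07 had an edgeR adjusted p of 5.00e-06. TAP1, the other subunit, changed by 1.54 ± 0.18 and NLRC5, the activator of this gene program, by 1.61 ± 0.18. CD274, the checkpoint ligand PD-L1, stood at 1.58, 2.24 and 1.57 CPM in GFP and 2.71 to 9.60 CPM with TYRO3 (1.51 ± 0.19). None of these 4 overlapped between the groups, and 7 members were also called without experiment 1, against 3 without the replicate block. With at least 10 counts required in every library, which takes members low in GFP out of the test, 4 were called. HLA genes share reads among themselves, and their values are left out.

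The integrated stress response formed another block of rises. Of 10 listed transcription factors, BATF2 included, 7 were called higher and 0 lower (median 1.03). Of 19 tested ATF4 effector genes 10 were called higher and 1 lower (median 0.79). Among 20 enzymes of amino acid synthesis, 12 were called higher and 0 lower (median 0.89), as were 6 of 12 amino acid transporters (0.60) and 6 of 23 cytosolic tRNA synthetases and their partners (0.17). Of the same 12 largest rises, CHAC1, which degrades glutathione, and the secreted protein STC2 belong here. The promoters of ASNS, MTHFD1L and CHAC1 are shown because they hold the amino acid response element, and they were chosen after their values and sequences were seen. ASNS makes asparagine and MTHFD1L works in mitochondrial folate metabolism. Capitals mark TGATGNAA, or TTNCATCA on the other strand, which is the form in CHAC1.
ASNS promoter, chr7:97872409-97872658, minus strand: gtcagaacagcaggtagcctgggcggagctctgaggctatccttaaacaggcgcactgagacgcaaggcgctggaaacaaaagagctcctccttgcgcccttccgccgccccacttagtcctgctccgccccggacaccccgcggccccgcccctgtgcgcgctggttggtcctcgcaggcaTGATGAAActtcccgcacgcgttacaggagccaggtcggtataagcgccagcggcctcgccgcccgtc
MTHFD1L promoter, chr6:150866236-150866485, plus strand: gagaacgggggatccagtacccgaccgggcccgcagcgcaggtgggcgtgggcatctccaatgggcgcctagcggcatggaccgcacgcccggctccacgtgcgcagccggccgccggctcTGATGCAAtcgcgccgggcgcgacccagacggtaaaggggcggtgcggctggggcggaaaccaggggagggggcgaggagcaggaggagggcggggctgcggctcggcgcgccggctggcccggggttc
CHAC1 promoter, chr15:40953221-40953470, plus strand: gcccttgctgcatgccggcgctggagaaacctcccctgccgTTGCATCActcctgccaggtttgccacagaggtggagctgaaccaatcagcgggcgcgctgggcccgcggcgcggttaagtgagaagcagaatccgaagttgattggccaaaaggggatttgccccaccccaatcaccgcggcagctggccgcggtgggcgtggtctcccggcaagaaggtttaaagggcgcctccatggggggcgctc
The element was in 4 of 14 promoters of the synthesis enzymes (28.6%), 2 of 17 of the effectors (11.8%), 1 of 9 of the transcription factors (11.1%), 2 of 19 of the synthetases (10.5%) and 0 of 11 of the transporters. It was in 21 of 446 of genes called higher (4.71%), 7 of 254 of genes called lower (2.76%) and 172 of all 11264 (1.53%).

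ASNS was at 87.3, 93.2 and 192 CPM in GFP and at 254 to 535 CPM with TYRO3 (median 379), a log2 fold change of 1.64 ± 0.14 (edgeR adjusted p = 6.99e-05). The serine pathway enzyme PSAT1 changed by 1.25 ± 0.09, mitochondrial PCK2 by 1.22 ± 0.10 and the transsulfuration enzyme CBS by 0.96 ± 0.09. In all 4 enzymes every TYRO3 library was above every GFP library. Of this list 12 members were also called without experiment 1, and 12 to 13 with any 1 library left out. Among the transporters, the glycine carrier SLC6A9 held 6.31, 6.50 and 7.89 CPM in GFP and 15.1 to 37.2 CPM with TYRO3 (1.87 ± 0.19). The cystine carrier SLC7A11 changed by 1.24 ± 0.20, the glutamine carrier SLC1A5 by 0.86 ± 0.10 and the arginine carrier SLC7A1 by 0.68 ± 0.11. The synthetases GARS (1.14 ± 0.11), CARS (1.03 ± 0.11), SARS (0.79 ± 0.10) and YARS (0.62 ± 0.06), which load glycine, cysteine, serine and tyrosine, were higher in all 9 TYRO3 libraries than in the GFP library of the same experiment. Without experiment 1, 3 of the 12 transporters were called, SLC7A1 (0.62) not among them, and 5 of the 23 synthetases.

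ATF4 itself was at 246, 211 and 282 CPM in GFP and at 254 to 882 CPM with TYRO3 (median 432; 0.92 ± 0.20, edgeR adjusted p = 6.65e-03). Its groups overlapped, since the WT library of experiment 2 held 254 CPM, and it was not called without the GFP library of experiment 3 (0.74) or without experiment 1 (0.97). The factor JDP2 changed by 2.27 ± 0.32, ATF3 by 1.46 ± 0.32 and BATF2 by 1.15 ± 0.18, and ATF3 was not called without the GFP library of experiment 3 (1.42). BATF2 was highest in experiment 2, at 4.26 CPM in GFP and 8.33 to 13.25 CPM with TYRO3. OAS1, OAS2, OAS3 and IFIT5 were also highest there, so the place of BATF2 in this list is uncertain. CHAC1 stood at 3.68, 5.42 and 8.34 CPM in GFP and at 8.40 to 107 CPM with TYRO3 (median 28.1; 2.52 ± 0.49, edgeR adjusted p = 4.45e-03). STC2 was at 8.41, 12.2 and 13.4 CPM in GFP and 28.4 to 139 CPM with TYRO3 (2.48 ± 0.37), ADM2 changed by 2.21 ± 0.36 and the autophagy receptor CCPG1 by 1.06 ± 0.10. In CHAC1 the WT library was the lowest TYRO3 library of experiments 2 and 3 and the highest of experiment 1, so its order among constructs was not the same in the 3 experiments. SESN3, a sestrin that is listed with the effectors, fell by 1.34 on the log2 scale (SE 0.15). Without experiment 1, 2 of 10 factors and 4 of 19 effectors were called higher, and without the replicate block 3 factors and 6 effectors were called. Calls in either direction went from 7 factors to 4 without the GFP library of experiment 1 and to 2 without that of experiment 3, and from 11 effectors to 6 and 7.

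Of 21 chaperones and other genes of the endoplasmic reticulum, 1 was called higher and 0 lower, with a median of 0.01. The share called was 4.76% here and 6.25% among the cytosolic heat shock genes, against 6.33% of all genes tested. It was XBP1, a factor of the unfolded protein response, at 0.86 ± 0.16, which was not called without experiment 1 (0.78). Cytosolic heat shock genes had 0 rises and 1 fall among 16, and all 16 log2 fold changes were negative with a median of -0.37. Without the GFP library of experiment 2, 3 heat shock genes and 2 genes of the endoplasmic reticulum list were called. The fall with all libraries was HSPA1B, at 132, 34.7 and 108 CPM in GFP and 7.74 to 50.9 CPM with TYRO3 (-1.70 ± 0.43, edgeR adjusted p = 0.0151). Its groups overlapped, it shares most of its sequence with HSPA1A so that reads cannot be assigned with certainty, and it was not called without the GFP library of experiment 1 (-1.46) or 3 (-1.35). The NRF2 and glutathione list had 7 rises among 24, led by thioredoxin reductase TXNRD1 (0.97 ± 0.13), GCLM (0.75 ± 0.11) and SRXN1 (1.33 ± 0.20), and 4 were called without the GFP library of experiment 3.

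Enzymes of cholesterol synthesis fell nearly throughout. Of 20 enzymes, 19 were called lower and 0 higher (median -0.94), the largest share of any list with at least 8 tested genes, and in 19 of the 20 the 9 TYRO3 libraries lay below the 3 GFP libraries. The promoters of SC5D, FDPS and HMGCS1 are shown as the called members with the smallest adjusted p. HMGCS1 makes HMG-CoA at the start of the pathway, FDPS makes farnesyl diphosphate in its middle and SC5D is a desaturase near its end. Capitals mark the NF-Y box CCAAT, a partner element of the sterol response element. On the other strand this box reads ATTGG.
SC5D promoter, chr11:121292521-121292770, plus strand: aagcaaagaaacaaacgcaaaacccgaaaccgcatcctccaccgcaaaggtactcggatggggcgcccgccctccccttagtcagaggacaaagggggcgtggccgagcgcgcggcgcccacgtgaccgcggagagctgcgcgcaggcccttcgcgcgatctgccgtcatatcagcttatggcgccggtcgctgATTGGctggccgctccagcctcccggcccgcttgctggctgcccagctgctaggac
FDPS promoter, chr1:155308616-155308865, plus strand: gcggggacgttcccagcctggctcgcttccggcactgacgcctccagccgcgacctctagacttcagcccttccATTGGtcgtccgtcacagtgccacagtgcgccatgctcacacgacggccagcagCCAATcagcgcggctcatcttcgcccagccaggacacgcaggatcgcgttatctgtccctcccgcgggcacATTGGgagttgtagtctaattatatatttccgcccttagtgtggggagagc
HMGCS1 promoter, chr5:43313413-43313662, minus strand: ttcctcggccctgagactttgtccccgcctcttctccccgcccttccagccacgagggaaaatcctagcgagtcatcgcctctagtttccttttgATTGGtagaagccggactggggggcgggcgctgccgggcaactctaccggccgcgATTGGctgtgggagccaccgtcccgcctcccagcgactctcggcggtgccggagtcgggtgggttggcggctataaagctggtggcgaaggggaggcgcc
The box was in 12 of 15 promoters of the list (80%), 105 of 254 of genes called lower (41.3%), 147 of 446 of genes called higher (33%) and 3931 of all 11264 (34.9%). Among the other lists searched it ran from 2 of 11 for the amino acid transporters (18.2%) to 10 of 14 for the amino acid synthesis enzymes (71.4%). The latter list rose, so the box is not particular to the sterol list. The sterol response element, searched as TCACNCCAC and GTGGNGTGA, was in 0 of the 15 windows and in 98 of all (0.87%).

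**Figure D2:**
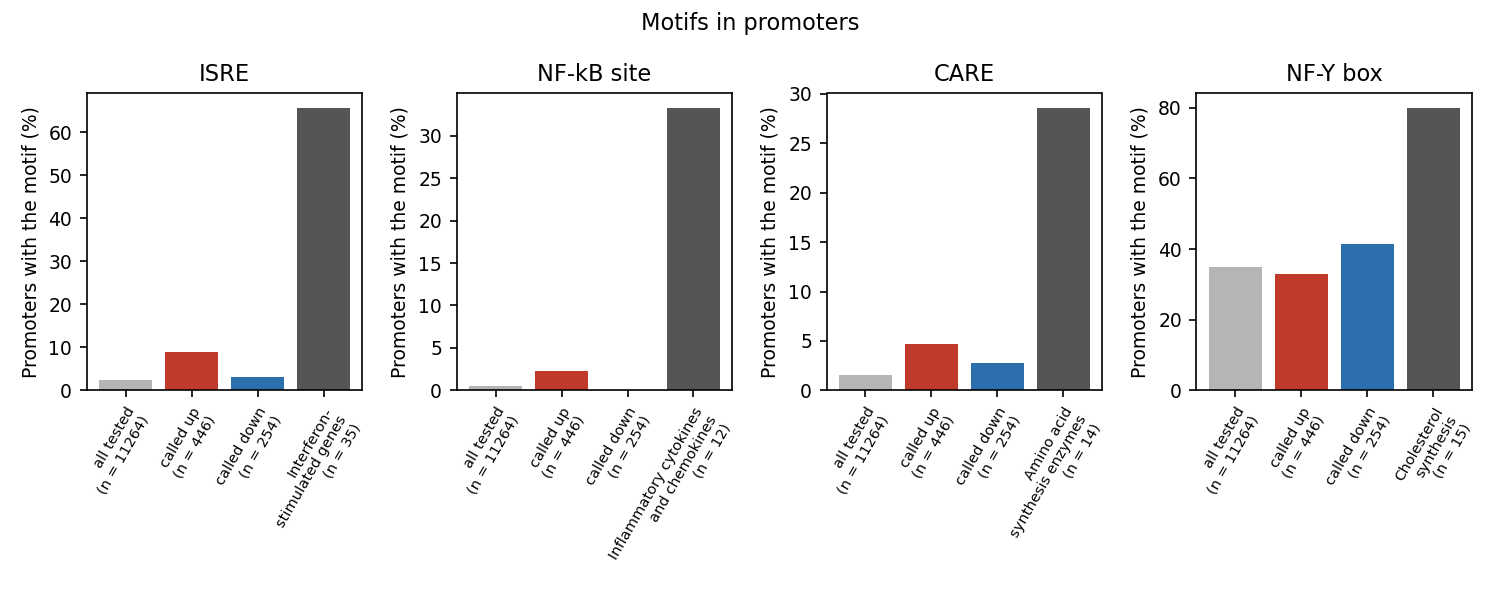
Share of promoters that hold each of 4 motifs (vertical axis, percent; bars start at 0) among all genes tested, genes called up, genes called down and the gene group named under the last bar, with the number of promoters under each bar. The interferon element is in 65.7% of the interferon-stimulated promoters against 2.42% of all, and the NF-Y box in 80% of the cholesterol synthesis promoters against 34.9% of all. The NF-Y box is also in 71.4% of the amino acid synthesis promoters, which its panel does not show.

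HMGCS1 stood at 506, 647 and 538 CPM in GFP and at 82.8 to 329 CPM with TYRO3 (median 204), and fell by 1.64 on the log2 scale (SE 0.19, edgeR adjusted p = 2.74e-04). The decarboxylase MVD was at 98.4, 119 and 112 CPM in GFP and 17.2 to 70.0 CPM with TYRO3, and fell by 1.498 (SE 0.21). In both genes the TYRO3 libraries of experiment 1 were lower than every other library. Along the pathway the log2 fold changes were -1.17 for ACAT2, -0.85 for MVK, -1.02 for IDI1, -0.77 for FDPS, -0.72 for FDFT1, -0.93 for SQLE and -1.33 for LSS. In the later steps they were -0.91 for CYP51A1, -1.05 for TM7SF2, -0.95 for MSMO1, -0.64 for NSDHL, -1.21 for HSD17B7, -0.66 for EBP and for SC5D, and -1.21 for DHCR7. The enzyme that was not called was PMVK (-0.12 ± 0.09, edgeR adjusted p = 0.404). The members other than HMGCS1, MVD, SC5D and FDPS were named after their values were seen.

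The size of the fall depended on the experiment. The median over the 20 enzymes was -1.66 in experiment 1, -0.59 in experiment 2 and -0.61 in experiment 3. Without experiment 1, or without its GFP library alone, 10 of the 20 passed the rule. Both omissions take experiment 1 out of the fold change, so they are not separate checks. Without that GFP library, among others, SC5D (-0.53), MVK (-0.54), FDFT1 (-0.47), SQLE (-0.55), CYP51A1 (-0.57), MSMO1 (-0.50), NSDHL (-0.49) and EBP (-0.49) were not called. Without the replicate block 10 were called. TYRO3 was also highest in experiment 1, as given above, and the part of its level in this difference was not tested.

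**Figure D3:**
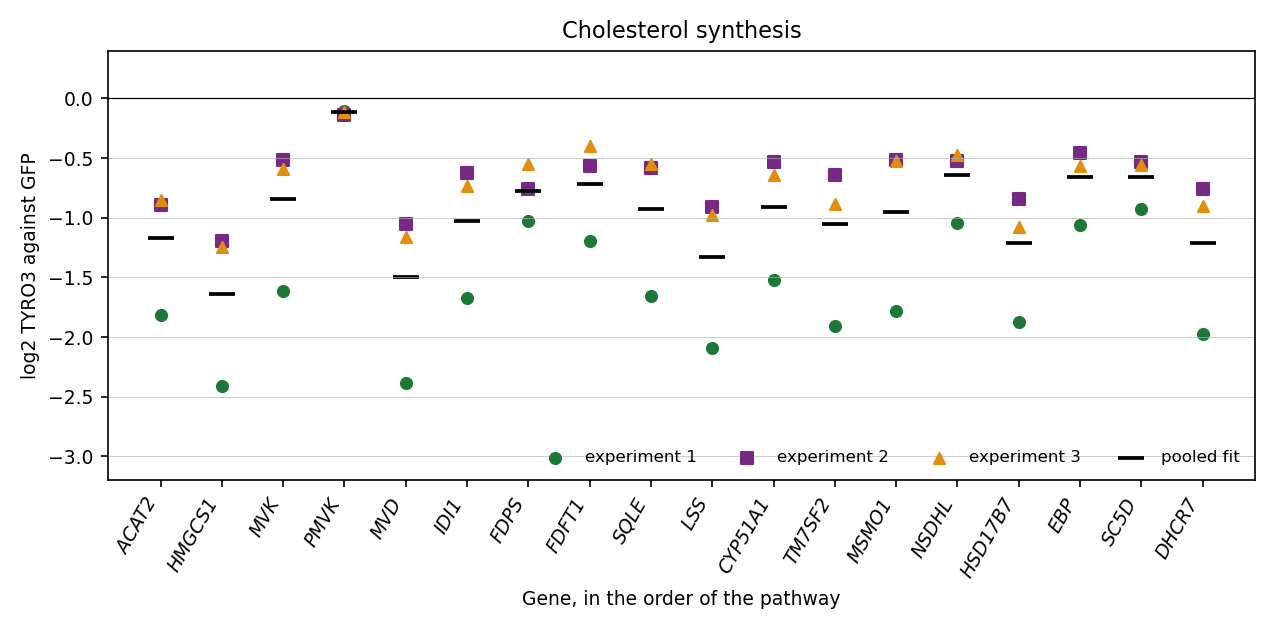
Log2 fold change of TYRO3 against GFP (vertical axis) for 18 of the enzymes of cholesterol synthesis in the order of the pathway (horizontal axis), in experiment 1 (circles), 2 (squares) and 3 (triangles) and in the fit of all 12 libraries (bars). Every enzyme shown is below 0 in each experiment, and all but PMVK, at -0.12 in the fit of 12 libraries, are lowest in experiment 1.

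Neighbouring lipid genes moved less widely. Of 13 genes of fatty acid synthesis, 5 were called lower and 0 higher (median -0.58), among them ACSS2, which makes acetyl-CoA from acetate (-1.16 ± 0.13), ACLY (-0.73 ± 0.09), LPIN1 (-0.93 ± 0.15) and fatty acid synthase FASN (-0.66 ± 0.11), which was not called without the GFP library of experiment 3 (-0.58). In the list of sterol regulation, uptake and efflux, 4 of 12 were called lower and 1 higher. The sterol sensor INSIG1 held 414, 502 and 446 CPM in GFP and 80.0 to 388 CPM with TYRO3 (-1.19 ± 0.21), and STARD4 fell by 0.83 and the factor SREBF2 by 0.62 (SE 0.15 and 0.12). The efflux pump ABCA1 moved the other way, from 1.84, 1.94 and 1.26 CPM in GFP to 1.53 to 7.33 CPM with TYRO3 (1.41 ± 0.25), with overlap of the groups. Without the GFP library of experiment 1, 2 of the 12 were called, STARD4 (-0.53) and SREBF2 (-0.35) not among them, and SREBF2 was not called without the WT library of experiment 1 (-0.58).

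Melanocyte genes were lower as well. Among 12 transcription factors 5 were called lower and 1 higher (median -0.40), and among 27 pigment and differentiation genes 7 were called lower and 1 higher (median -0.41), with 24 of the 27 log2 fold changes negative. MITF, the master factor of the lineage, was at 306, 306 and 337 CPM in GFP and at 94.97 to 254 CPM with TYRO3 (median 157), and fell by 0.96 on the log2 scale (SE 0.17, edgeR adjusted p = 2.51e-03). The groups did not overlap. Few of these calls held without experiment 1. MITF was -1.51, -0.49 and -0.87 in experiments 1, 2 and 3, and without experiment 1 it was -0.65 and not called, nor was any other of the 12 factors. Without the replicate block 2 of the factors were called, and without the GFP library of experiment 1 there were 3. SOX5 (-1.38 ± 0.26) and SOX4 (-0.89 ± 0.18) fell and SOX9, a factor of neural crest cells, rose (1.18 ± 0.25) from 0.526, 1.16 and 0.809 CPM in GFP to 1.15 to 4.23 CPM. SOX4 was not called without the GFP library of experiment 1 (-0.47).

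Of the pigment and differentiation genes, DCT, which acts in melanin synthesis, held 334, 365 and 444 CPM in GFP and 74.5 to 380 CPM with TYRO3 (-1.17 ± 0.22), with overlap. The protease CAPN3 was at 116, 122 and 157 CPM in GFP and 13.8 to 114 CPM with TYRO3 (-1.51 ± 0.27). MC1R, the melanocortin receptor, changed by -0.60 ± 0.11 and was not called without the GFP library (-0.43), the WT library (-0.58) or the ΔADAM library (-0.58) of experiment 1. Without experiment 1, 3 of the 27 were called lower, and without the replicate block 2 were called. Calls in either direction went from 8 to 5 without the GFP, WT or ΔADAM library of experiment 1. The 12 largest falls, chosen by the same rule, also held the adhesion receptors CEACAM1 (237, 337 and 267 CPM in GFP, 46.1 to 167 CPM with TYRO3, -1.54 ± 0.22) and IGSF11 (-1.49 ± 0.27), the GD3 ganglioside synthase ST8SIA1 (-1.39 ± 0.21) and PIK3R3, a regulatory subunit of PI3K (-1.35 ± 0.17). The zinc finger gene ZNF114 (-1.55 ± 0.19), FGFBP3 (-1.39 ± 0.19) and PHRF1 (-1.45 ± 0.36) complete them, and PHRF1 was not called without the GFP library of experiment 3 (-0.78). A further gene of the 12 belongs to a multicopy family and is left out.

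Genes of the invasive, dedifferentiated melanoma state were higher. Of 25, 14 were called higher and 0 lower, with a median of 0.65. THBS1, a matricellular protein, was at 622, 260 and 318 CPM in GFP and 510 to 1591 CPM with TYRO3 (1.13 ± 0.11, edgeR adjusted p = 7.97e-05). The groups overlapped because the GFP library of experiment 1 was high, but each TYRO3 library was above the GFP library of its experiment. The activin subunit INHBA changed by 1.71 ± 0.22, and the YAP targets ANKRD1 and CYR61 by 1.44 ± 0.16 and 0.89 ± 0.11. Without experiment 1, 8 were called, and without the replicate block 3. The fibroblast markers, some of which are matrix genes like those of this list, were lower with TYRO3 in the sums given above, and their part in the result was not tested.

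Among the TAM receptors AXL rose, from 86.5, 68.8 and 55.1 CPM in GFP to 70.0 to 194 CPM (0.80 ± 0.12, edgeR adjusted p = 1.06e-03). MERTK fell, from 19.5, 18.8 and 22.04 CPM in GFP to 6.59 to 17.1 CPM (-0.86 ± 0.15, edgeR adjusted p = 2.67e-03). Both were called without experiment 1, at 0.71 and -0.67. AXL overlapped between the groups and MERTK did not. The ligand GAS6 was at 1.31, 3.48 and 2.02 CPM in GFP and 2.31 to 6.61 CPM with TYRO3 (0.79 ± 0.22), and it was not called without the GFP library of experiment 1 (0.56) or of experiment 3 (0.90). Of 19 other receptor tyrosine kinases 3 were called higher and 2 lower, with the collagen receptor DDR2 at 0.92 ± 0.15, KDR at 0.73 ± 0.12, EGFR at 0.91 ± 0.21 and ROR1 at -0.77 ± 0.19. KDR was the endothelial marker above 1 TPM in all libraries, and the endothelial sum was 3.27 to 6.55 TPM in GFP and 3.31 to 10.7 TPM in TYRO3 libraries. None of the 19 was called without experiment 1, and ROR1 was not called without its GFP library (-0.53). EGFR was 0.39 and not called with counts scaled by transcript length, and 0.39 and 0.15 in limma with a pseudocount of 0.1 and 1 TPM.

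In the lists of pathways downstream of such receptors a minority of the members was called. Over the lists of this paragraph the share called ran from 9.09% (IGF axis) and 11.4% (hypoxia and glycolysis) to 30% (immediate early genes). Among all genes tested it was 6.33%. Of 19 genes of ERK output 4 were called higher, with cyclin D1 (CCND1) at 534, 476 and 444 CPM in GFP and 664 to 1124 CPM with TYRO3 (0.81 ± 0.10) and FOSL1 at 1.06 ± 0.21. Of 20 immediate early genes 6 were called higher, among them EGR1 (1.10 ± 0.26), JUNB (0.76 ± 0.17), FOSL2 (0.70 ± 0.15) and NR4A1 (0.65 ± 0.10). None of the 20 was called without experiment 1, and JUNB, FOSL2 and NR4A1 were not called without its GFP library (0.58, 0.58 and 0.51). In the STAT3 list 4 of 15 were higher: SOCS1, also in the interferon signaling list, SOCS3 at 0.94 ± 0.18, CEBPD at 1.18 ± 0.19 and PIM1 at 0.62 ± 0.15. PIM1 was not called without the GFP (0.43) or the ΔADAM library (0.57) of experiment 3. Of 24 p53 targets 3 were higher and 1 lower, and none was called without experiment 1 or without its GFP library, CDKN1A being at 0.77 ± 0.19 with all libraries at 0.53 without that one and at 0.79, also not called, without the GFP library of experiment 3. Of 35 hypoxia and glycolysis genes 3 were higher, VEGFA (1.25 ± 0.23), EPAS1 (1.37 ± 0.22) and NDRG1 (0.66 ± 0.12), and 1 lower, ALDOC (-0.86 ± 0.13), while 28 of the 35 log2 fold changes were negative. NDRG1 was not called without the GFP library of experiment 1 (0.52). Of 11 genes of the IGF axis IGFBP5 fell, from 936, 944 and 676 CPM in GFP to 204 to 625.1 CPM (-1.33 ± 0.20), the other 10 not being called, while 3 of the list were called without the GFP library of experiment 2 or of experiment 3.

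Smaller counts came from the remaining lists, and several were near or below the 6.33% called among all genes tested. The share was 3.23% for lysosome and autophagy, 3.33% for the cytoskeleton, 6.67% for nonsense-mediated decay and 9.76% for histones. It was 21.7% for collagens and integrins and 23.8% for the BCL2 list. Of 21 BCL2 family genes and inhibitors of apoptosis 4 were higher, with BCL2L1 at 0.62 ± 0.10, and 1 was lower, BIRC7 at -0.72 ± 0.24, and without the GFP library of experiment 1 BCL2L1 (0.51) and BIRC7 (-0.41) were not called. BCL2L1 was also not called without the ΔGS library of experiment 3 (0.57), nor BIRC7 without any of 7 other single libraries (-0.67 to -0.79). Of 23 collagens and integrins 3 were higher and 2 lower, with COL6A3 at 1.35 ± 0.25 and ITGA10 at -0.81 ± 0.17, the latter not called without the GFP library of experiment 3 (-0.75), when 2 of the list were called. Tubulin TUBA1A was the 1 call among 30 cytoskeleton genes (-1.32 ± 0.14), and the sialidase NEU1 the 1 call among 31 lysosome and autophagy genes (-0.61 ± 0.11; -0.47 and not called without the GFP library of experiment 1). Of 41 histone genes 2 were higher and 2 lower, led by the linker histone H1F0 (0.83 ± 0.09), and 1 was called without the GFP library of experiment 3. Among 15 factors of nonsense-mediated decay 1 was higher, GADD45B (0.81 ± 0.20), a stress gene that is a target of this decay and not one of its factors, and it was not called without the GFP library of experiment 1 (0.73) or 3 (0.56). Without the replicate block the calls fell to 0 among the collagens and integrins and in the sterol regulation list, to 0 among the lysosome genes and the chaperones, to 1 in fatty acid synthesis and in ERK output, to 2 among interferon signaling genes, TAM genes and receptor tyrosine kinases, to 3 in the BCL2 list and to 4 in the NRF2 list.

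With all libraries and edgeR, none of 32 S phase genes, 34 G2 and M phase genes, 25 genes of the MYC network and ribosome biogenesis, 27 splicing factors, 86 cytosolic ribosomal proteins and 75 nuclear-encoded subunits of oxidative phosphorylation was called. At an adjusted p of at most 0.05 with no threshold on the fold, 2 rose and 2 fell among the S phase genes, 2 and 1 among the G2 and M phase genes, 3 and 1 in the MYC list, 0 and 9 among the splicing factors, 1 and 0 among the ribosomal proteins and 0 and 12 among the oxidative phosphorylation subunits. Their medians lay between -0.13 and -0.00, and the smallest adjusted p-values belonged, among others, to TYMS (-0.32 ± 0.07), RFC4 (0.43 ± 0.09), UQCRC2 (-0.33 ± 0.05), ATP5F1A (-0.42 ± 0.07) and HNRNPA2B1 (-0.28 ± 0.05). These values lie within the 1.5-fold limit, and an absence of change cannot be read from it. With counts scaled by transcript length 2 genes of the MYC list were called, MXD4 (-0.59) and MXI1 (-0.84), and without the WT library of experiment 3 the ribosomal protein gene RPS9 was (0.76), the last 2 named after their values were seen.

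**Figure D4:**
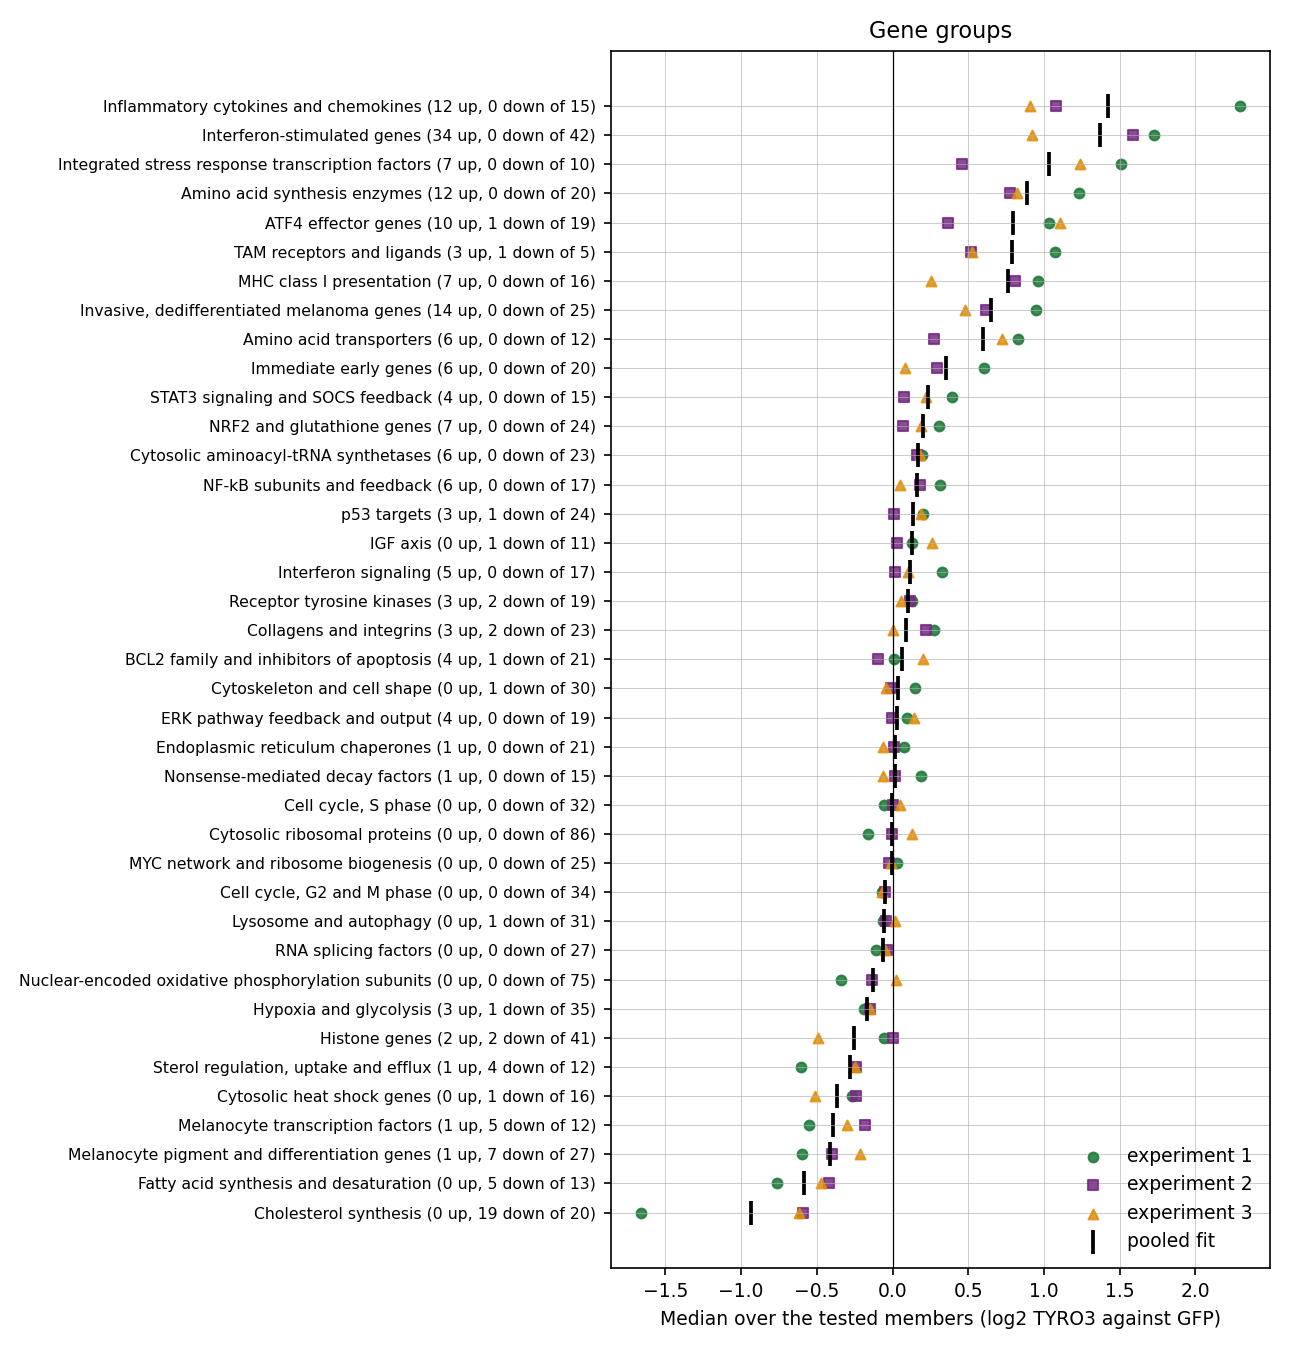
Median log2 fold change over the tested members (horizontal axis) of 39 gene groups (vertical axis, with the number called up and down of those tested), in experiment 1 (circles), 2 (squares) and 3 (triangles) and in the fit of all 12 libraries (bars). Cytokines at 1.43 and interferon-stimulated genes at 1.37 are at the top and cholesterol synthesis at -0.94 at the bottom, and the growth lists lie near 0.

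Differences among the 3 constructs were tested gene by gene. In a model of 4 groups and experiment, 0 of 15098 genes differed among WT, ΔGS and ΔADAM TYRO3 by the edgeR F-test at an adjusted p of at most 0.05, and 181 (1.2%) did at an unadjusted p under 0.05, of which 6 were among the 955 called genes. With the 9 TYRO3 libraries alone the counts were 0 and 226. By chance a share of about 0.05 would fall under this unadjusted p, so the test was conservative here. Its 0 calls do not establish that the response was shared. A likelihood ratio test in DESeq2 called 2 genes, XIRP1 and AC025283.2, named after their values were seen. XIRP1 was below 2.6 CPM in all libraries, at 1.26, 2.54 and 1.20 CPM with WT and 0.059, 0.265 and 0.0348 CPM with ΔADAM TYRO3, and AC025283.2 was at 0 in the 3 WT libraries and at 0.35 to 2.62 CPM in the ΔGS and ΔADAM libraries. Neither passed in edgeR (adjusted p = 0.719 and 1.00).

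Against the same 3 GFP libraries, which makes the following values dependent on each other, WT TYRO3 had 251 genes higher (1.66%) and 104 lower (0.689%), ΔGS 422 (2.8%) and 284 (1.88%), and ΔADAM 476 (3.15%) and 309 (2.05%). Over the genes called in the pooled comparison the median log2 fold changes were 0.88 with WT, 0.95 with ΔGS and 0.99 with ΔADAM TYRO3 for those called higher and -0.74, -0.85 and -0.84 for those called lower. In 408 pairs of constructs over 136 named genes, 4 differed at an unadjusted p under 0.05. They were HSPA1B (WT minus ΔGS 1.21, 95% interval 0.10 to 2.32), IRF1 (WT minus ΔGS -0.31, -0.57 to -0.05, and WT minus ΔADAM -0.27, -0.53 to -0.01) and SOCS3 (ΔGS minus ΔADAM 0.54, 0.22 to 0.86). The median width of these intervals was 0.80 to 0.81 on the log2 scale. In CHAC1, for instance, WT minus ΔGS was -0.60 (-1.64 to 0.43), and in ATF4 it was -0.40 (-0.86 to 0.07), whereas in ASNS it was -0.13 (-0.49 to 0.24).

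**Figure D5:**
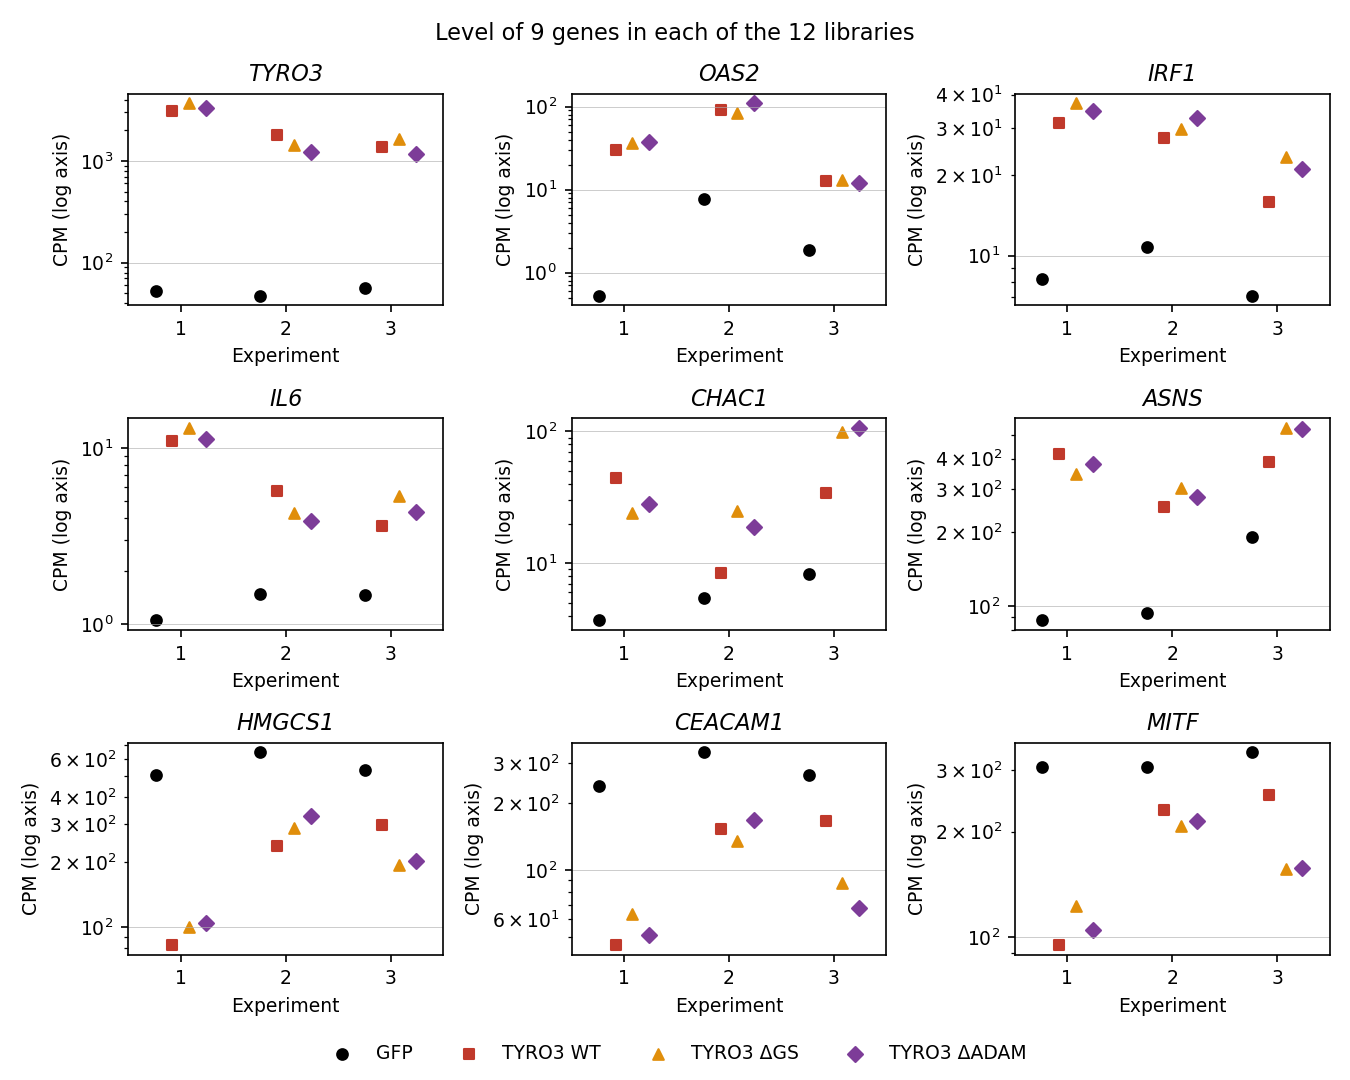
Level of 9 genes (vertical axes, CPM on a log scale) in the 12 libraries by experiment (horizontal axes), with GFP as circles, TYRO3 WT as squares, ΔGS as triangles and ΔADAM as diamonds. In every panel the TYRO3 libraries of an experiment are on the same side of their GFP library, as for OAS2 at 11.97 to 110 CPM against 0.526 to 7.69 CPM.

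The response was larger in experiment 1. Over the genes called higher the median log2 fold change was 1.36, 0.75 and 0.88 in experiments 1, 2 and 3, and over those called lower it was -1.22, -0.59 and -0.70, while the median absolute value over all genes was 0.31, 0.15 and 0.20. The difference between experiment 1 and the other two passed the test of the interaction for 28 genes (0.185%), of which 15 were called, 4 higher and 11 lower, all 15 with the larger effect in experiment 1. They hold OAS3 and MX1 of the interferon-stimulated list and SQLE, MVK and MSMO1 of cholesterol synthesis. The interferon-stimulated list as a whole had medians of 1.73, 1.59 and 0.92, with experiment 3 lowest, and the ATF4 effectors had 1.03, 0.36 and 1.11, with experiment 2 lowest. The GFP library of experiment 1 is the shallowest of the 12 and enters every value of that experiment, so its depth and the experiment cannot be told apart. The called genes were not confined to weakly expressed ones, but in 4 classes of equal size by mean level, those called higher made up 6.41% of the lowest class and 2.70% of the highest.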

How the data were processed

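RNA of 12 cultures of transfected WM-266-4 cells was sequenced from polyadenylated, strand-specific libraries. The authors demultiplexed the reads with bcl2fastq, checked them with FastQC 0.11.9, trimmed them with Trimmomatic 0.33 and quantified transcripts with kallisto 0.46.0 against GRCh38, as named in the submitters' processing notes, and deposited 1 table per library of estimated counts and TPM per transcript. The deposited estimated counts were summed per gene with GENCODE 29, which matched 169797 of 188753 transcripts and 97.4 to 97.5% of the counts, and rounded to whole numbers. The deposited TPM values were used for marker levels and in alternatives on the log2 scale with a pseudocount of 1 or 0.1. Totals of 4008293 to 38184838 counts set the precision, which is lowest in the GFP library of experiment 1.

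Genes with at least 10 counts in enough libraries and 15 in all (edgeR's filterByExpr) were normalised by TMM and fitted by edgeR 4.0.16 in R 4.3.3 (quasi-likelihood, with terms for TYRO3 and for experiment). All adjusted p-values are Benjamini-Hochberg values over the 15098 genes tested, and log2 fold changes are given ± SE. A gene was called at a fold over 1.5 and an adjusted p of at most 0.05. CPM values are scaled by TMM, and log2 fold changes within an experiment compare its 3 TYRO3 libraries with 1 GFP library. The titles name the experiment of each library. Deviations from the group means correlated between libraries of the same experiment at r = 0.0384 to 0.529 over 18 pairs (median 0.294), and at a median of -0.135 between experiments. Of the pairs within an experiment, those of 2 TYRO3 libraries were at 0.325 to 0.529 and the 9 with a GFP library at 0.0384 to 0.264. The 3 pairs at or under 0.1 were all those of the GFP library of experiment 1. The TYRO3 libraries of an experiment thus share variation that its GFP library shares less. The pooled fit has no term for this and takes these libraries as independent within an experiment, so its adjusted p-values may be too small. Each pair of constructs was compared in the model of 4 groups with a 95% interval, and the experiments by an interaction of TYRO3 with experiment 1 against 2 and 3.

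The comparison and the gene lists were chosen with earlier results of these data known. Lists can share members, such as BIRC3, SLC7A11, EGR1 and SOCS1, so their counts are not of separate genes. Genes were named by rule: TYRO3, the 12 largest rises and 12 largest falls among called protein-coding genes with a mean of at least 5 CPM and the same direction in all 9 TYRO3 libraries, and up to 4 called members of each list with the smallest adjusted p (up to 2 where none was called). Promoter sequences are from RefSeq (GRCh38.p14), matched by symbol for 11264 of 15089 symbols. DESeq2 1.42.0, limma 3.58.1, other normalisations, filters and models and the omission of each library were tried as alternatives. The fits were tested on simulated data. Members of multicopy families were left out where reads cannot be assigned. Some genes that pass these rules are not reported here.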

Additional observations from a re-analysis of the deposited data

Results flagged for a closer look

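In 10 of the named genes the effect of TYRO3 was not the same in experiment 1 as in the other experiments by the interaction test (edgeR, adjusted over all genes). On the log2 scale the effect in experiment 1 was higher by 2.48 for OAS3, by 2.12 for the antiviral GTPase MX1, by 2.97 for the chemokine CCL5 and by 0.83 for the tryptophanyl-tRNA synthetase WARS. The effect was more negative, with differences of -1.89 for CAPN3, -1.48 for INSIG1, -1.28 for SOX4, -1.09 for SQLE, -1.06 for MVK and -1.27 for MSMO1. MX1, CCL5, WARS, SQLE, MVK and MSMO1 were named after their values were seen. All 10 differences rest on the single GFP library of experiment 1, without which the interaction could not be fitted.

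In 4 of 156 genes, 1 TYRO3 library lay far from the other 8, by a limit that marks about 1 gene in 20 by chance among independent values. The number is not above that rate. The TYRO3 libraries also come from experiments that differ in level, so the rate is only approximate here. CXCL10 reached 32.9 CPM in the ΔADAM library of experiment 2. In the ΔGS library of experiment 3, RELB was at 27.8 CPM, the ribosomal protein gene RPL36A at 214 CPM and IRF7 at 5.29 CPM.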

How the results depend on the processing

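The pooled comparison gave 607 genes higher and 348 lower. With at least 10 counts required in every library, 358 were higher. With glmTreat against a fold of 1.5 the counts were 103 and 23, and with no threshold on the fold 1392 and 1541. Without the replicate block, that is with no term for experiment, they were 263 and 125, and without experiment 1 they were 212 and 88. With 1 library left out they ranged from 350 to 687 and from 147 to 423, both lowest without the GFP library of experiment 1. That omission takes experiment 1 out of the fold change. The highest counts came without the WT library of experiment 3 and without the GFP library of experiment 2. DESeq2 gave 631 and 352, and limma with a pseudocount of 1 TPM gave 560 and 241. Genes that differed among constructs numbered 0, 2 by a likelihood ratio test in DESeq2, chosen after seeing the data, and 0 to 1 with 1 library left out. Genes that differed between experiment 1 and the others numbered 28, and 4 to 126 with 1 library left out, lowest without the ΔADAM library of experiment 1 and highest without the ΔGS library of experiment 3. They numbered 5, 7, 7, 8, 10, 13, 16, 30 and 63 without the GFP library of experiment 3, the GFP or ΔGS library of experiment 2, the WT library of experiment 2 or 1, the ΔADAM library of experiment 2, the ΔGS library of experiment 1, and the WT and ΔADAM libraries of experiment 3. The cause of these changes was not tested, apart from the smaller number of samples that an omission leaves. Of 141 called genes among the 156 followed, 40 were called under every alternative that tested them, and none changed direction. A gene that an alternative did not test counts as kept there. OAS1, for instance, is not tested with at least 10 counts required in every library. The GFP group rests on 3 libraries, of which the shallowest limits what can be called in experiment 1.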
